A study of Mus musculus with 27 samples.

Results

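The transcript levels of 9 genes were followed across resting, LPS-treated and malignant mouse B cells: Ezh2, Eed and Suz12, which encode the core of Polycomb repressive complex 2 (PRC2), and Dnmt1, Uhrf1, Dnmt3a, Dnmt3b, Tet2 and Tet3, which encode enzymes and a cofactor that write, copy or remove DNA methylation. They were chosen by name from the 30735 genes whose transcript abundances were summed from the deposited table, and all 9 were found. Each was at 1 TPM (a relative abundance scaled by transcript length and library total) or more in all 27 libraries, so none was lost to the filter on low values.

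PRC2 places methyl groups on lysine 27 of histone H3, a mark of silenced genes; Ezh2 or its relative Ezh1 is the catalytic subunit, Eed reads the mark and Suz12 holds the complex together. Dnmt1 copies DNA methylation onto newly made strands after replication and is brought there by Uhrf1, while Dnmt3a and Dnmt3b can methylate unmarked DNA and the Tet enzymes oxidise methylcytosine towards its removal. In B cells, Ezh2 and Dnmt1 are known for high levels in dividing germinal centre cells, and Tet2 and Dnmt3a are known as genes mutated in blood cancers.

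The libraries came from B220-purified B cells, B220 being a surface marker of the B lineage. In all, 4 resting libraries and 4 LPS libraries were from spleen, 1 each from wt, hv, cr and co animals in either group; LPS (lipopolysaccharide, which drives B cells into division) was given for 2 days. The other 19 were lymphomas: 7 of line hv, 7 of line cr, 4 of line co and 1 whose labels name both hv and CO, with 12 from lung, 4 from mesenteric nodes (all cr) and 3 from peripheral nodes. Except for the 2 wt libraries, every library is labelled as from a c-myc Igh transgenic mouse, so 3 of the 4 resting and 3 of the 4 LPS libraries carried a transgene too. The labels do not say what hv, cr and co stand for or what drives the transgene. Nothing states how many mice stand behind a library, so the p-values measure only the spread between these libraries.

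The recovered depth was 11531400 to 32032600 read pairs per library, with a median of 21464200. All 8 B cell markers were at 1 TPM or more in every library. The libraries also held other signals that moved with the groups. Haemoglobin transcripts took 1.15 to 10.99% of all TPM in resting libraries and at most 0.22% in the others, and the summed TPM of 8 macrophage markers was 122.7 to 809.3 in resting, 5.23 to 18.3 in LPS and 7.51 to 148.7 in lymphoma libraries. Summed TPM of 8 T cell markers reached 206.3 and of 6 lung epithelium markers 511.3 in single lymphomas, against at most 100.5 and 4.46 in the other libraries. One repeat-like gene, Gm20594, took 17.2 to 19.7% of TPM in resting, 10.9 to 16.3% in LPS and 13.7 to 34.3% in lymphoma libraries. Its highest share was in mesenteric node cr T35. Another, Gm10800, took 18.6% of TPM in the LPS cr library, and 2.696 to 3.65% in the LPS hv, resting wt and mesenteric node cr T6 libraries. Since TPM sums to the same total in each library, such a load lowers every other gene there. Fits without those 4 libraries, and with TPM rescaled without repeat-like and haemoglobin genes, were run: under the rescaling Tet3 was called lower (-0.81, adjusted p = 0.0339, limma) and Eed was not called (0.29, adjusted p = 0.135) in lymphoma against resting cells, and Eed was called lower against LPS cells (-0.50, adjusted p = 0.0227). The part of the macrophage, T cell and lung epithelium markers in the results was not tested. In bulk RNA, fewer cells of a type and less RNA per cell cannot be told apart.

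The promoters of 4 of the 9 genes carried letters of an E2F site, the binding sequence of the factors that switch genes on as cells enter S phase. The search covered RefSeq windows of 250 bases before to 50 after each annotated start (GRCm38.p6) for TTTCCCGC, TTTGGCGC, TTTCGCGC and TTTGCCGC on both strands; none of these 8-letter words contains another. The motif was chosen with the expression results known. It was found in 4 of the 14 windows of the 9 genes, against 2.26% of all 32851 windows and 5.02% of the 11765 windows that are rich in CpG (observed over expected of at least 0.6). The stretches below are shown because these 4 genes are also the ones that followed S phase genes across the lymphomas. Whether E2F factors act on these genes was not tested. They are on the gene's strand, 5′ to 3′, with the matching letters in capitals.

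Ezh2, chr6:47595006-47595155, minus strand: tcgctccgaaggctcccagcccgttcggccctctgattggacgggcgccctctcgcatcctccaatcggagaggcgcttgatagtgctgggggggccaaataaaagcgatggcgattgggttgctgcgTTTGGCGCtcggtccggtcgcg
Suz12, chr11:79992856-79993105, plus strand: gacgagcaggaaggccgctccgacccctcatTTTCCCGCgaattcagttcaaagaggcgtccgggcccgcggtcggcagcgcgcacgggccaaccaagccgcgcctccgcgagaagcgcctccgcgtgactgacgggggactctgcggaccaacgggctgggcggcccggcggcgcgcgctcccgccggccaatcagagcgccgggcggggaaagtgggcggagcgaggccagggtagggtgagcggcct
Uhrf1, chr17:56304063-56304312, plus strand: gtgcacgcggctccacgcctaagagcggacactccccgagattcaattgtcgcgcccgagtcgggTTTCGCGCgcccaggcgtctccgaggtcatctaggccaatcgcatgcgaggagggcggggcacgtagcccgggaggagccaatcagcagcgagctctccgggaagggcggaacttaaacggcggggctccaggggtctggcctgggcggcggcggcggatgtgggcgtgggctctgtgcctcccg
Dnmt1, chr9:20952824-20952853, minus strand: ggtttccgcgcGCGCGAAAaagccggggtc
Dnmt1, chr9:20952574-20952603, minus strand: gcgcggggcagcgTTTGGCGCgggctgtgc

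In Ezh2 the match begins at base 4 of the transcript, and in Suz12 it begins 219 bases before the start. The Uhrf1 match begins 185 bases before the downstream of its 2 annotated starts, while transcripts from the upstream start, whose window has no match, held 78.5% ± 8.8 (SD, n = 4) of the Uhrf1 TPM assigned to either start in resting cells. In Dnmt1 the matches lie 138 and 390 bases after the start of the transcript of the 1620-residue protein, and that transcript's own window has none. The transcript that begins at the start site of the window with the matches had a mean of 0.95 TPM at rest, against 23.0 TPM for that of the 1620-residue protein. No match was found in the windows of Eed, Dnmt3a, Dnmt3b, Tet2 or Tet3, which says only that these letters are not in those windows. Of 677 genes with a positive S phase slope across the lymphomas (below) that have a window, 12.6% held the motif, against 4.80% of all 9123 genes tested that have one, and 11 of 25 genes of the S phase list held it. Genes of that list, whose mean defines the slope, were not left out of the 677, nor were the members. The 12.6% is therefore not independent of them.

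**Figure D1:**
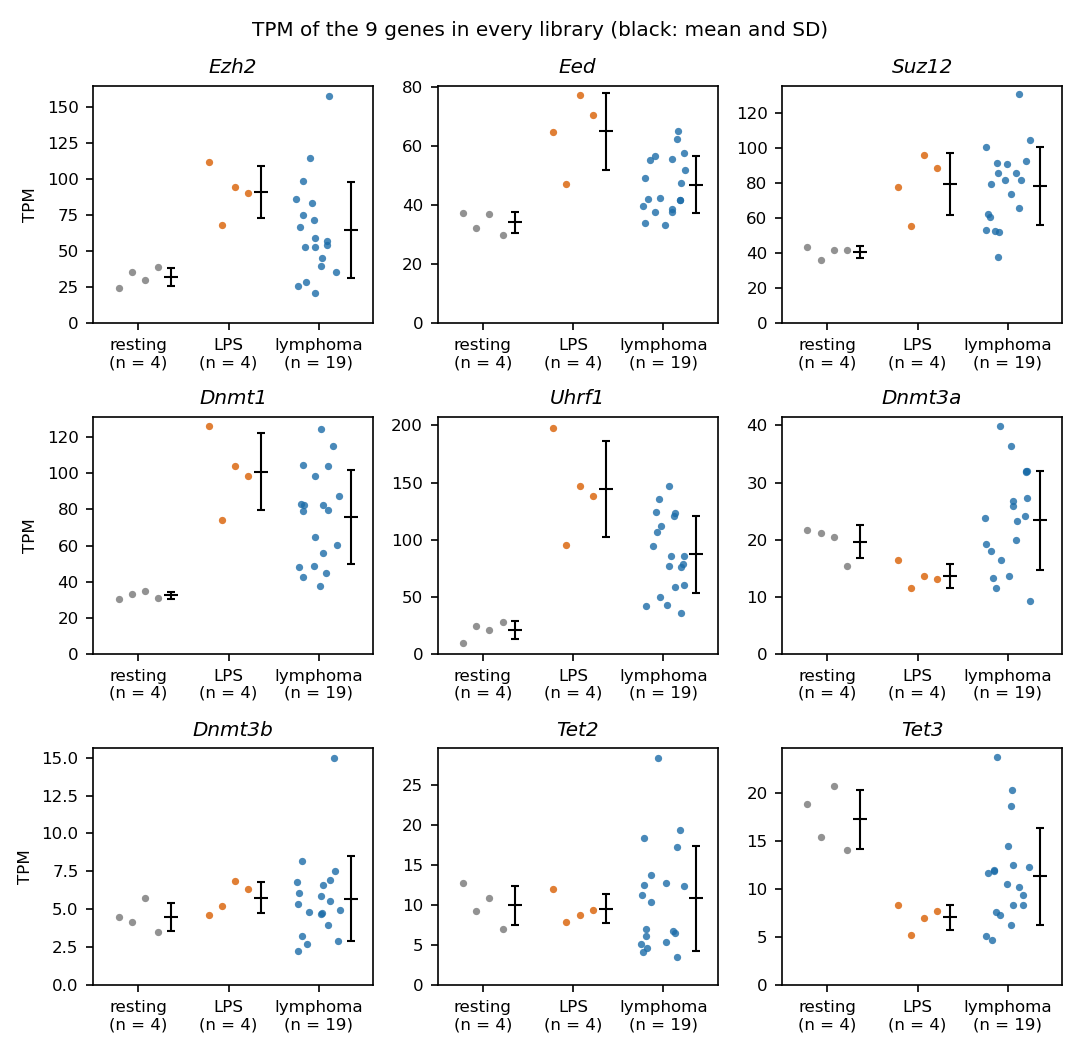
TPM of the 9 genes (vertical axes, each from 0) in resting, LPS and lymphoma libraries; each point is 1 library, and the black bar and whiskers are the mean and SD. All 4 LPS libraries lie above all 4 resting libraries for Ezh2, Eed, Suz12, Dnmt1 and Uhrf1 and below them for Tet3, and for Ezh2 the 19 lymphomas spread from below the lowest resting to above the highest LPS library.

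After 2 days of LPS, all 3 core PRC2 genes and both genes of maintenance methylation rose, and Tet3 fell. Dnmt3a was called lower too, a call that held in 6 of 16 alternative fits. On the log2(TPM + 1) scale used for every fold change here, limma with Benjamini-Hochberg adjustment over 11999 genes called 5 of the 9 higher and 2 lower. Of all genes tested, 25.2% were called higher and 33% lower, with a median log2 fold change of -0.16. How many of all genes show no overlap between groups was not counted, here or in the comparisons below. Statements on overlap therefore only describe the genes named.

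Ezh2, the methyltransferase (chr6:47530274-47595341), was at 24.2, 35.3, 29.7 and 38.6 TPM in the wt, cr, co and hv resting libraries and at 111.9, 68.0, 94.5 and 90.6 TPM in the LPS libraries in the same order. The groups did not overlap, and the lowest LPS value was in the cr library with the Gm10800 load. The log2 fold change was 1.48 ± 0.20 (SE; adjusted p = 6.74e-05, limma). Eed, the subunit that binds the finished mark (chr7:89954656-89980983), was at 37.4, 32.3, 37.0 and 29.9 TPM at rest and at 64.8, 47.1, 77.5 and 70.7 TPM with LPS, a rise of 0.89 ± 0.19 (adjusted p = 0.00141). Suz12, the scaffold (chr11:79993106-80034123), was at 43.6, 35.9, 42.0 and 41.8 TPM at rest and at 77.8, 55.6, 96.2 and 88.7 TPM with LPS, a rise of 0.92 ± 0.19 (adjusted p = 0.00135). For both genes every LPS library was above every resting library.

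Uhrf1, the cofactor that binds hemimethylated DNA (chr17:56303321-56323486), had the highest fold change of the 9. It was at 9.62, 24.9, 20.6 and 28.0 TPM in the wt, cr, co and hv resting libraries and at 197.9, 95.1, 147.0 and 138.2 TPM with LPS. The wt pair spanned both extremes, from the lowest resting to the highest LPS value, and the fold between the 2 libraries of a genotype ran from 3.82 in cr to 20.6 in wt. The log2 fold change was 2.79 ± 0.32 (adjusted p = 5.12e-05). Dnmt1, the maintenance methyltransferase (chr9:20907206-20959888), was at 30.6, 33.5, 34.7 and 31.3 TPM at rest, the tightest resting group of the 9 with a highest value 1.14 times the lowest; no LPS library overlapped it. With LPS it was at 126.4, 74.5, 104.1 and 98.7 TPM, a rise of 1.58 ± 0.18 (adjusted p = 1.99e-05).

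The de novo enzymes did not rise with them. Dnmt3a (chr12:3806007-3914443) was at 21.6, 21.1, 20.4 and 15.4 TPM at rest and at 16.5, 11.5, 13.6 and 13.1 TPM with LPS; 3 of 4 LPS libraries were below every resting one. It fell by 0.49 ± 0.18 (adjusted p = 0.0314), and this call was lost without the 3 resting and LPS libraries above 1% Gm10800 (log2 fold change -0.31, adjusted p = 0.258) and in 6 of the 8 fits that left out 1 library. The call was also lost with coding transcripts alone and with no filter. Dnmt3b (chr2:153649450-153687730) was at 3.51 to 5.75 TPM at rest and at 4.65 to 6.83 TPM with LPS, and its log2 fold change of 0.31 ± 0.20 did not pass (adjusted p = 0.197); with coding transcripts alone it did (0.60, adjusted p = 0.0214). Dnmt3a and Dnmt3b each overlap an annotated antisense gene, and Ezh2, Eed, Suz12 and Tet3 each overlap at least 1 gene on the opposite strand. Overlap here is of whole gene spans, and exons were not compared. No source names the strand setting used for counting. Wherever exons overlap, reads of such partners thus cannot be told apart from those of these 6 members. The mean ratio of Dnmt1 to Dnmt3a in TPM, chosen after the values were seen, was 1.68 ± 0.26 (SD, n = 4) at rest and 7.33 ± 0.56 with LPS.

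The oxidising enzymes went separate ways. Tet3 (chr6:83362373-83459084) was at 18.9, 15.4, 20.7 and 14.04 TPM at rest and at 8.31, 5.23, 6.97 and 7.68 TPM with LPS, with no overlap, and fell by 1.18 ± 0.19 (adjusted p = 2.28e-04). Tet2 (chr3:133463679-133544390) was at 7.02 to 12.7 TPM at rest and at 7.87 to 12.0 TPM with LPS, with a log2 fold change of -0.05 ± 0.21 (adjusted p = 0.857).

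**Figure D2:**
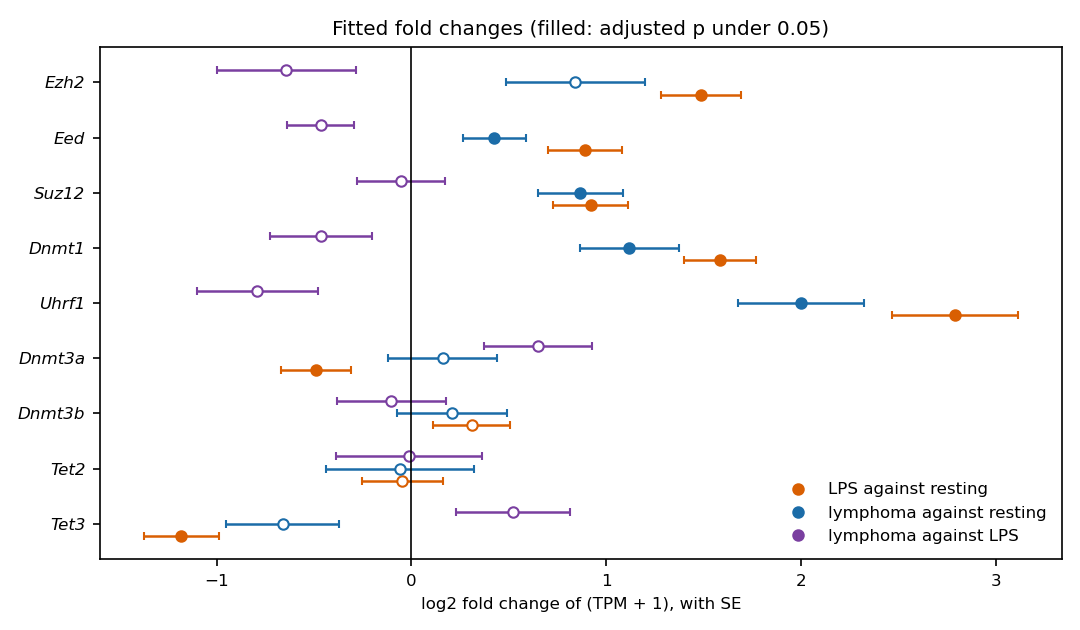
Log2 fold changes of (TPM + 1) with their SE (horizontal axis) for the 9 genes in the 3 comparisons; filled points have an adjusted p under 0.05 in limma. Filled points are 7 for LPS against resting, 4 for lymphoma against resting and 0 for lymphoma against LPS.

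In the lymphomas, Uhrf1, Dnmt1, Suz12 and Eed were higher than in resting B cells and no member was called lower. Over 13239 genes, limma called 14.5% higher and 17.4% lower. This comparison shares its 4 resting libraries with the LPS comparison, so the 2 are not independent.

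Uhrf1 was at 35.5 to 146.6 TPM in the lymphomas, with a median of 85.5, and Dnmt1 at 37.7 to 124.8 TPM, with a median of 79.4. All 19 lymphomas were above all 4 resting libraries for both genes. The log2 fold changes were 2.00 ± 0.32 for Uhrf1 (adjusted p = 4.44e-05) and 1.12 ± 0.26 for Dnmt1 (adjusted p = 0.00162). Suz12 was at 37.8 to 130.8 TPM, with a median of 81.8, and 18 of 19 lymphomas were above the resting range, a rise of 0.87 ± 0.22 (adjusted p = 0.00376). Eed was at 33.4 to 65.3 TPM, with a median of 42.6 and 17 of 19 lymphomas above the resting range. Its rise of 0.43 ± 0.16 was close to the threshold (adjusted p = 0.0481) and did not pass in any of the 4 fits that left out 1 resting library, where the adjusted p was 0.0739 to 0.154.

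Ezh2 was the most scattered of the PRC2 genes. Its lymphoma values ran from 20.8 TPM in peripheral node hv T15, below every resting library, to 157.9 TPM in lung hv T5, above every LPS library, with a median of 56.8 and a highest value 7.58 times the lowest. The same ratio was 1.96 for Eed and 3.46 for Suz12. Ezh2 was above the resting range in 15 of 19 lymphomas, and its log2 fold change of 0.84 ± 0.36 did not pass (adjusted p = 0.0739). It passed with the 12 lung lymphomas alone (1.14, adjusted p = 0.00445), with the 9 lymphomas whose names are written joined (1.33, adjusted p = 6.84e-04) and with coding transcripts alone (1.14, adjusted p = 0.0269). These were the only 3 of 16 alternative fits in which Ezh2 passed, and the 9 joined lymphomas are all among the 12 from lung.

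The remaining 4 genes did not pass. Tet3 was at 4.65 to 23.7 TPM in the lymphomas, with a median of 10.5 and 15 of 19 below the resting range, and a log2 fold change of -0.66 ± 0.29 (adjusted p = 0.0830). Under median-of-ratios scaling it passed (-0.72, adjusted p = 0.0307). Dnmt3a, at 9.19 to 39.9 TPM with a median of 23.8, was above the resting range in 11 lymphomas and below it in 4 (0.16 ± 0.28, adjusted p = 0.687). Tet2 had the widest range of the 9 among lymphomas, 3.497 to 28.3 TPM with a highest value 8.10 times the lowest, and lay above the resting range in 6 and below it in 9 (-0.06 ± 0.38, adjusted p = 0.921). Dnmt3b was at 2.23 to 15.003 TPM, with a median of 5.32 (0.21 ± 0.28, adjusted p = 0.60); it was the least abundant of the 9, with 101.5 read pairs or more behind each value.

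Set against LPS cells, the lymphomas showed no member called in either direction, where limma called 5.27% of 12880 genes higher and 8.56% lower. At an unadjusted p under 0.05 there were 3: Eed (-0.47 ± 0.17, p = 0.0115, adjusted p = 0.0687), Uhrf1 (-0.79 ± 0.31, p = 0.0167, adjusted p = 0.0882) and Dnmt3a (0.65 ± 0.28, p = 0.0276, adjusted p = 0.122), all from limma. None of the 19 lymphomas was above the highest LPS library for Eed, Dnmt1 or Uhrf1. Eed passed under both other scalings and without the LPS cr library (log2 fold changes -0.47 to -0.61), and Dnmt3a passed under median-of-ratios scaling (0.64, adjusted p = 0.0467).

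Across the 19 lymphomas, Uhrf1, Ezh2, Suz12 and Dnmt1 were higher where genes of DNA replication were higher. The measure was the mean log2(TPM + 1) of a list of 30 S phase genes that holds none of the 9, which ran from 3.88 to 4.40 in resting, 5.59 to 6.39 in LPS and 4.36 to 6.44 in lymphoma libraries. The slope, in log2 units of a gene per unit of this mean, was 1.01 ± 0.14 for Uhrf1 (adjusted p = 8.66e-05), 1.18 ± 0.18 for Ezh2 (adjusted p = 1.59e-04), 0.67 ± 0.12 for Suz12 (adjusted p = 0.00118) and 0.71 ± 0.16 for Dnmt1 (adjusted p = 0.00764). These 4 were the ones called, all positive; of 12654 genes, 7.14% were positive and 0.956% negative. Of all 1024 calls 88.2% were positive; under median-of-ratios scaling, chosen after seeing the data, 41.3% of 2500 calls were, and the same 4 members were called positive. Eed did not pass (0.35 ± 0.12, adjusted p = 0.0701), nor did Dnmt3a (0.13 ± 0.24), Dnmt3b (0.13 ± 0.25), Tet2 (0.20 ± 0.33) or Tet3 (-0.30 ± 0.25).

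Lymphoma names are written in 2 styles in the labels, 9 joined and all from lung, 10 separated, and this was treated as a possible batch. Among the joined the slopes were 0.93 for Uhrf1, 1.35 for Ezh2, 0.78 for Suz12 and 0.24 for Dnmt1, and none passed with 0 of 11492 genes called. Among the separated they were 0.86 for Ezh2 (adjusted p = 0.0768) and 0.61 for Suz12 (adjusted p = 0.0773), while Uhrf1 and Dnmt1 passed. Without the 2 lymphomas farthest from the median S phase mean, peripheral node hv T15 and mesenteric node cr T35, Uhrf1 and Ezh2 passed and Suz12 (0.59, adjusted p = 0.0653) and Dnmt1 (0.615, adjusted p = 0.168) did not. With the S phase mean as a covariate, no member was called in LPS or lymphoma against resting cells. In the LPS comparison this mean does not overlap between the groups, so the covariate and LPS cannot be told apart. Among lymphomas only peripheral node hv T15 (4.36) was below the highest resting library (4.40), and mesenteric node cr T35 came next at 4.63. The covariate and the group can thus hardly be told apart in that comparison either.

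**Figure D3:**
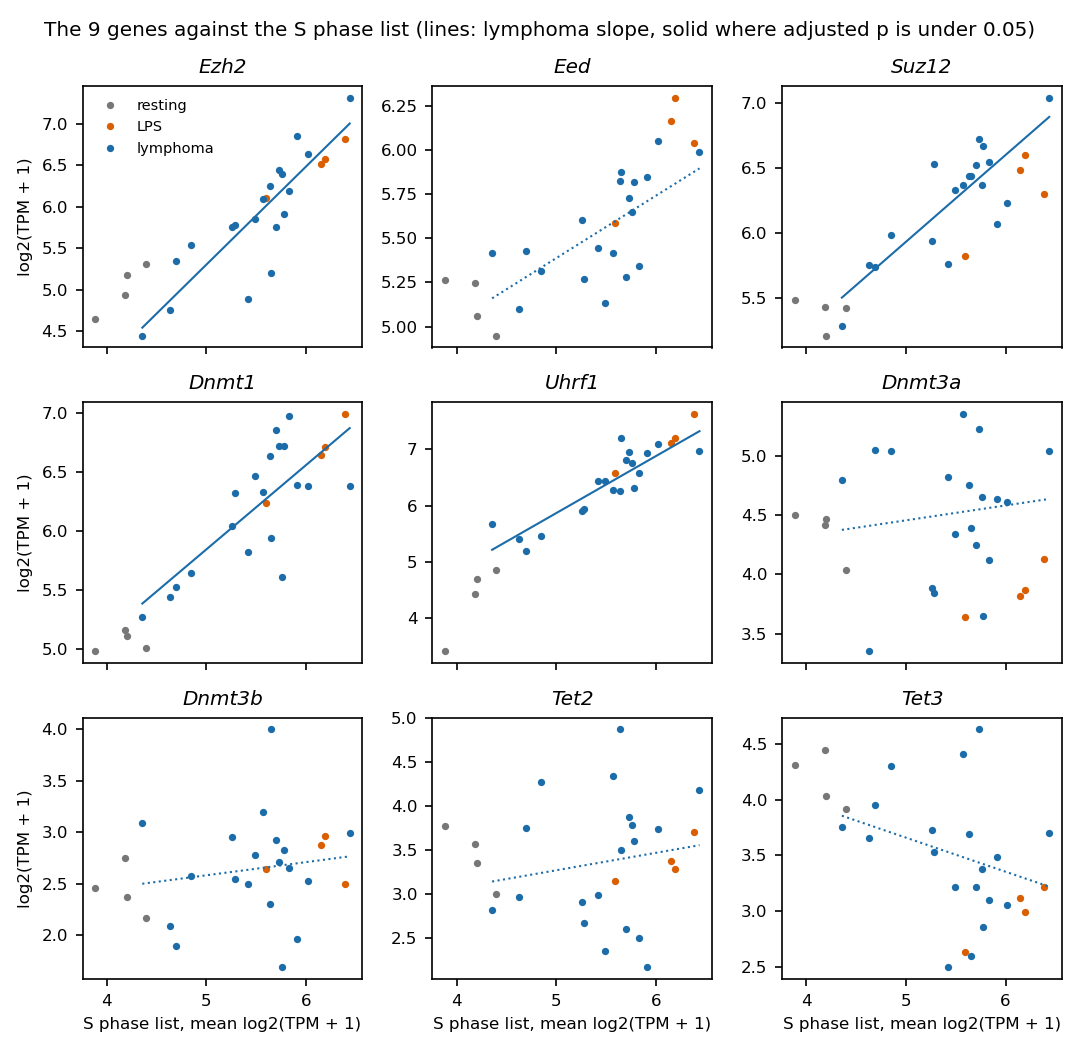
Log2(TPM + 1) of each gene (vertical axis) against the mean log2(TPM + 1) of the 30 S phase genes (horizontal axis), 1 point per library; lines are the slopes fitted in the 19 lymphomas, solid where the adjusted p is under 0.05. Solid lines are seen for Ezh2, Suz12, Dnmt1 and Uhrf1.

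The genes whose levels were most like each member's over the 19 lymphomas differed between these groups. Likeness was Pearson's r of log2(TPM + 1) among 8567 genes, given as a description, since the 19 points share library composition. For Ezh2 the likest were Wdr76 (r = 0.94), Rif1 (0.92) and Cbx1 (0.91), for Suz12 they were Stil (0.90), Atad5 (0.89) and Polq (0.89), and for Uhrf1 they were Syce2 (0.89), Hist4h4 (0.89) and Mcm2 (0.89), a subunit of the replicative helicase. Dnmt1 was nearest to Sumo3 (0.88), Anln (0.87) and Rnf26 (0.86). Eed was nearest to the splicing genes Snrnp27 (0.85) and Lsm8 (0.84) and to Cul1 (0.84). Tet2 was nearest to Rbm26 (0.93), Bmpr1a (0.89) and Fam91a1 (0.89), and Tet3 to Col26a1 (0.92), Lpl (0.91) and Zfp407 (0.90). Dnmt3a was nearest to Alas1 (0.89), Srbd1 (0.85) and Stam2 (0.85), and Dnmt3b to Atf4 (0.72), Dnajc25 (0.72) and Mbip (0.71).

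Neither the line nor the site of a lymphoma gave a called difference in any member. In a limma fit of 18 lymphomas with line and site as terms, 0% of 12480 genes were called for cr against hv, 0% for co against hv, 0.00801% for co against cr and 0.016% for node against lung. Ezh2 was at 20.8 to 98.4 TPM in the 7 node lymphomas and at 39.6 to 157.9 TPM in the 12 lung lymphomas, with a node minus lung difference of -0.83 ± 0.29 (p = 0.00950, adjusted p = 0.770, limma). With name style as a further term it was -0.35. Dnmt3a was at 9.19 to 24.2 TPM in the 7 cr lymphomas, 11.5 to 36.4 TPM in the 7 hv and 23.4 to 39.9 TPM in the 4 co lymphomas (cr minus hv -0.60 ± 0.26, p = 0.0315, adjusted p = 0.546; co minus cr 0.73 ± 0.30, p = 0.0260, adjusted p = 0.630, limma).

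Transcript by transcript, 27 of the 48 member transcripts tested changed with LPS, 23 higher and 4 lower, against 45.5% of all transcripts. In lymphoma against resting cells 12 of 54 were called, all higher (19.3% of all), and in lymphoma against LPS cells 1 of 54 (6.76% of all). Kallisto divides reads among transcripts that overlap, so values of single transcripts are less certain than gene sums. Shares of named transcript classes were chosen after the annotation of the files was seen, and their 24 comparisons were tested by exact permutation tests (two-sided) and adjusted together.

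**Figure D4:**
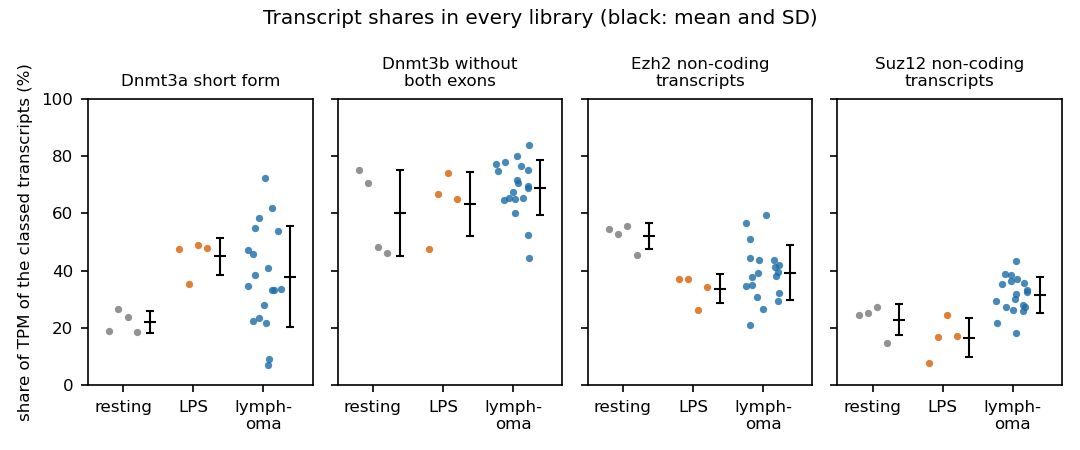
Share of TPM (vertical axis, %) of the short form of Dnmt3a among its short and long forms, of transcripts without both exons among 10 coding forms of Dnmt3b, and of non-coding transcripts among all of Ezh2 and of Suz12, 1 point per library with the mean and SD in black. The Dnmt3a short form is above the resting range in all 4 LPS libraries and runs from 7.16 to 72.3% in the lymphomas.

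Dnmt3a is made as a 908-residue protein and, from an internal start, as a 689-residue protein that lacks its first part and is known as Dnmt3a2. The short form was 19.0, 26.5, 23.9 and 18.4% of the TPM of both forms in the wt, cr, co and hv resting libraries and 47.7, 35.3, 49.0 and 48.0% in the LPS libraries. The groups did not overlap, and the exact permutation p of 0.0286 is the smallest that 4 against 4 can give; adjusted over the 24 it was 0.137. The long form was at 6.08 ± 0.65 TPM (SD, n = 4) at rest and 4.00 ± 0.54 with LPS, the short form at 1.73 ± 0.47 and 3.41 ± 1.11. The rest of the Dnmt3a total of 19.6 TPM at rest and 13.7 TPM with LPS was assigned to other transcripts. The 2 Dnmt3a transcripts called lower with LPS were among those others: Dnmt3a-202, a retained intron, and Dnmt3a-209, of 732 bases. In the lymphomas the short form's share ran from 7.16% in lung hv T16 to 72.3% in lung co T9, with a median of 34.4%.

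Dnmt3b transcripts differ by a pair of adjacent exons of 70 and 119 bases (chr2:153683608-153683677 and chr2:153684359-153684477), whose joint loss removes part of the catalytic domain, as in the inactive form Dnmt3b3. Both junctions are shown because they define the forms compared here; capitals mark the 2 exons.

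Dnmt3b-210, both exons: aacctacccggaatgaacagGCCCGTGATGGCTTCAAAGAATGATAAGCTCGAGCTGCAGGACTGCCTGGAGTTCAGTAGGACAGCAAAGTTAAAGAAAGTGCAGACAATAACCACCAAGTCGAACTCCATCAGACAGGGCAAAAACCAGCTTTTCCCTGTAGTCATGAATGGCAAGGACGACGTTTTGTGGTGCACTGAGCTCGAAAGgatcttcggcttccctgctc
Dnmt3b-206, neither exon: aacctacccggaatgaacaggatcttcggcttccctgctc

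Transcripts without both exons held 60.0% ± 14.98 (SD, n = 4) of the TPM of the 10 coding forms in resting, 63.3% ± 11.3 in LPS and 69.0% ± 9.6 (n = 19) in lymphoma libraries, and no difference passed. Retained-intron transcripts are outside this share: forms without both exons had a mean of 1.67 TPM of a Dnmt3b total of 4.48 TPM at rest, 3.09 of 5.77 TPM with LPS and 2.99 of 5.69 TPM in lymphomas. One of them, Dnmt3b-206, was at 0.15 to 0.87 TPM at rest, 1.19 to 3.52 TPM with LPS and 0.53 to 6.04 TPM in lymphomas. It was called higher against resting cells in LPS (1.201 ± 0.26, adjusted p = 0.00388, limma over transcripts) and in lymphomas (0.92 ± 0.28, adjusted p = 0.0195). At rest only the cr (0.87 TPM) and co (0.54 TPM) libraries reached the 0.5 TPM of the filter. Dnmt3b-206 thus met the filter through its LPS or lymphoma libraries, which favoured a rise in advance.

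Of Ezh2 TPM, transcripts not annotated as protein coding held 54.4, 52.6, 55.7 and 45.3% in the wt, cr, co and hv resting libraries and 37.0, 37.2, 26.2 and 34.4% in the LPS libraries, with no overlap (exact permutation p = 0.0286, adjusted 0.137). Coding Ezh2 TPM was 15.5 ± 4.42 (SD, n = 4) at rest, 60.6 ± 12.9 with LPS and 39.3 ± 20.4 (n = 19) in lymphomas. For Suz12 the like share was 7.65 to 24.3% in LPS and 18.1 to 43.5% in lymphoma libraries, higher in lymphomas by 14.9 percentage points (exact permutation p = 0.00113, adjusted 0.0271), the 1 of 24 comparisons that passed. Most apart was Suz12-204, a 553-base target of nonsense-mediated decay that was listed at 0 in all 4 resting libraries, at 0.79 to 2.59 TPM in LPS and at 0 to 19.3 TPM in lymphomas, with a median of 9.92. It was called in lymphomas against resting (adjusted p = 6.68e-06, limma over transcripts) and against LPS cells (adjusted p = 0.00558). Against resting cells it met the filter of 0.5 TPM through its lymphoma libraries alone, so a rise there was close to fixed in advance. Shares of the 1501-residue form of Dnmt1, the 1803-residue form of Tet3, the upstream start of Uhrf1 and the non-coding transcript of Eed differed by at most 2.66 percentage points between group means.

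Partner genes were split in direction. Of 11 partners and accessory subunits of PRC2, 10 were tested. In LPS against resting cells limma called 5 higher and 4 lower, with a median log2 fold change of 0.51 against -0.16 for all genes. Of all genes, 25.2% were higher and 33% lower there. Epop and Rbbp7 rose, by 2.04 ± 0.21 (adjusted p = 7.69e-06) and 1.71 ± 0.19 (adjusted p = 1.60e-05); Rbbp7 is a histone-binding subunit of the core. Phf1 and Jarid2, which help to bring PRC2 to chromatin, had log2 fold changes of -2.16 ± 0.29 (adjusted p = 7.62e-05) and -1.64 ± 0.24 (adjusted p = 9.84e-05). In lymphoma against resting cells 3 were higher and 4 lower, among them Phf1 (-1.88 ± 0.37, adjusted p = 4.24e-04), Epop (1.41 ± 0.31, adjusted p = 0.00106), Phf19 (1.17 ± 0.32, adjusted p = 0.00653) and Lcor (-1.07 ± 0.24, adjusted p = 0.00129). The shares of all genes were 14.5% higher and 17.4% lower. In lymphoma against LPS cells 1 of 10 was lower, Rbbp7 (-0.88 ± 0.19, adjusted p = 0.00271), and 1 higher, Jarid2 (0.81 ± 0.26, adjusted p = 0.0406). For all genes these shares were 8.56% lower and 5.27% higher.

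Ezh1, the other catalytic subunit, was singled out after its values were seen. It was at 29.8 to 37.1 TPM at rest, 9.61 to 12.3 TPM with LPS and 10.9 to 58.0 TPM in lymphomas, 16 of which were below the resting range. The log2 fold changes against resting cells were -1.61 ± 0.16 with LPS (adjusted p = 6.96e-06, limma) and -0.95 ± 0.31 in lymphomas (adjusted p = 0.0202). The ratio of Ezh2 to Ezh1 in TPM was 0.69 to 1.30 at rest and 7.07 to 9.10 with LPS. In lymphomas it ran from 0.61 in peripheral node hv T15 to 9.16 in lung co T9, with a median of 4.00, so that single lymphomas covered both the resting and the LPS range.

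PRC1 reads the PRC2 mark and ubiquitinates histone H2A. The list of 22 genes for PRC1 and H2A ubiquitin also held Bap1, Asxl1 and Asxl2. Of the 22, 5 were higher and 4 lower with LPS, where 25.2% of all genes were higher and 33% lower. They included Pcgf6 (1.03 ± 0.18, adjusted p = 3.92e-04), Cbx7 (-1.19 ± 0.27, adjusted p = 0.00232), Phc1 (-1.14 ± 0.24, adjusted p = 0.00134) and Phc3 (-1.06 ± 0.20, adjusted p = 6.36e-04). In lymphomas 2 were higher than at rest, Yaf2 (0.66 ± 0.22, adjusted p = 0.0265) and Pcgf6 (0.52 ± 0.17, adjusted p = 0.0241), and 2 lower, Pcgf5 (-0.97 ± 0.34, adjusted p = 0.0292) and Phc2 (-0.65 ± 0.21, adjusted p = 0.0192), where 14.5% of all genes were higher and 17.4% lower. Lower than with LPS were Pcgf2 (-1.28 ± 0.23, adjusted p = 5.74e-04), which lay below every LPS library in all 19 lymphomas, and Pcgf5 (-1.34 ± 0.35, adjusted p = 0.0112). They were the only 2 of 22 called there, where 8.56% of all genes were lower and 5.27% higher. The 4 enzymes that remove H3K27 methylation or acetylate that residue were all lower with LPS, where 33% of all genes were: besides Kdm6b these were Crebbp (-1.32 ± 0.20), Ep300 (-1.22 ± 0.18) and Kdm6a (-0.86 ± 0.19). Kdm6b, a demethylase, was at 15.4 to 26.5 TPM at rest and 1.61 to 2.04 TPM with LPS (-2.84 ± 0.20, adjusted p = 6.22e-07), and at 1.76 to 12.99 TPM in lymphomas, all 19 of which were below the lowest resting library. Kdm6a, Crebbp and Kdm6b were lower in lymphomas than at rest (3 of 4 tested, log2 fold changes -0.91 to -1.65). Against LPS cells Kdm6b was higher in lymphomas (1.18 ± 0.36, adjusted p = 0.0281), the only 1 of 4 called.

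Of 26 partners in DNA methylation, 23 were tested in LPS against resting cells and 10 were higher and 5 lower, with a median of -0.13 against -0.16 for all genes. Of all genes, 25.2% were higher and 33% lower there. Hells and Cdca7, which together remodel nucleosomes for DNA methylation, rose by 3.07 ± 0.21 (adjusted p = 4.71e-07) and 2.44 ± 0.23 (adjusted p = 5.04e-06), and Ahcy, which clears the by-product of methylation reactions, by 2.76 ± 0.28 (adjusted p = 1.35e-05). In lymphomas Cdca7 (2.21 ± 0.38, adjusted p = 9.78e-05), Hells (1.87 ± 0.36, adjusted p = 3.31e-04) and Trim28 (0.90 ± 0.17, adjusted p = 3.27e-04) were among 5 higher than at rest, and L3mbtl3 (-0.98 ± 0.36, adjusted p = 0.0421) was among 3 lower. The shares of all genes were 14.5% higher and 17.4% lower. Against LPS cells 5 of 24 were lower and 1 higher, among the lower ones Ahcy (-1.63 ± 0.42, adjusted p = 0.0113), Hells (-1.20 ± 0.36, adjusted p = 0.0279) and Mat2a (-0.69 ± 0.20, adjusted p = 0.0212). For all genes these shares were 8.56% lower and 5.27% higher. Tet1 had a median of 0.65 TPM at rest, 0.86 with LPS and 0.15 in lymphomas, and Dnmt3l was at or under 0.25 TPM in every library.

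Lists of genes known to be silenced by these systems were mostly below the filter on low values. None of 18 germline genes known for silencing by DNA methylation reached the filter of 1 TPM in 4 libraries, and their summed TPM was 1.06 to 2.50 at rest, 0.31 to 1.58 with LPS and 0.19 to 3.69 in lymphomas. Of 28 genes known as Polycomb targets, 3 were tested with LPS and 4 in the lymphomas; 2 rose with LPS, Cdkn2a (2.32 ± 0.36, adjusted p = 3.08e-04) and Cdkn2b (1.39 ± 0.31, adjusted p = 0.00178), which encode inhibitors of the cell cycle, and none was called in the lymphomas. Cdkn2a was at 0.07 to 0.52 TPM at rest and 2.63 to 12.5 TPM with LPS. It therefore met the filter through its LPS libraries alone, so a rise was close to fixed in advance. Cdkn2b had a resting median under 1 TPM, so the same limit may hold for it. In lymphomas Cdkn2a ran from 0 to 169.9 TPM, with 7 of 19 under 1 TPM and 8 above every LPS library.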

How the data were processed

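RNA was sequenced from 27 B220-purified B cell samples as ribosome-depleted, stranded, paired-end libraries, per the labels' protocols. The authors quantified transcripts with kallisto 0.43 on mm10 (GRCm38), with FastQC for quality, per the submitters' processing notes, and deposited TPM for 88198 transcripts. Transcripts were summed to 30735 genes; 740 had no symbol. Depth was recovered from steps in low values, of which 61.0 to 76.4% were whole reads within 0.02, too few for a count test.

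Log2(TPM + 1) was tested with limma 3.58.1 (R 4.3.3) on each comparison's own samples, for genes at 1 TPM or more in at least 4 of them (transcripts: 0.5 TPM), at an adjusted p of 0.05 over all genes. Lines and sites were terms of 1 fit of 18 lymphomas. The S phase slope was fitted over 19 lymphomas. Scripts were tested on simulated data. Tables were handled in Python 3.11.15.

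Members and lists were chosen with earlier results of these data known. Named were all 9 members, up to 4 called genes per list and comparison with the largest fold change, and the 3 likest genes per member. Of the DNA methylation partners, 1 gene that the rule names for the LPS comparisons with resting cells and with lymphomas is not reported here. Transcript classes, motifs, coding-only sums and median-of-ratios scaling of the slope were chosen after seeing the data. Other alternatives varied the pseudocount (0.1), filter, scaling, samples, covariates and a genotype block.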

Additional observations from a re-analysis of the deposited data

Results flagged for a closer look

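In 45 groups of 4 or 7 samples, a highest or lowest library stood apart from the rest of its group in 2, where chance would give about 1 in 20. The 2 of 45 are close to that share, so they are given only as a description. Among the 4 co lymphomas, Dnmt3a was at 39.9 TPM in lung co T34 and at 23.4 to 25.9 TPM in the others. In that lymphoma the short form held 9.13% of the TPM of the short and long protein forms together, which are part of the gene's total. Among the 7 cr lymphomas, Dnmt3b was at 15.003 TPM in mesenteric node cr T1 and at 2.23 to 6.77 TPM in the others. That lymphoma also had the highest Uhrf1 level of all 19, at 146.6 TPM.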

How the results depend on the processing

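For LPS against resting cells (6981 genes, 5 members higher, 2 lower), members lower came to 1 with no filter, without libraries above 1% Gm10800 and with coding transcripts only; leaving out 1 library gave 1 to 2. Tet3 was the member kept and Dnmt3a the one lost. With genotype as a replicate block, 7250 genes, 5 members higher and 2 lower were called, and no member's call changed; the labels name no shared mouse. With the S phase mean as covariate, 117 genes, 0 members higher and 0 lower were called, and Ezh2 (-0.39), Suz12 (-0.095) and Uhrf1 (-0.48) changed sign.

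For lymphoma against resting cells (4229 genes, 4 higher, 0 lower), members lower came to 1 (Tet3) under median-of-ratios scaling, under rescaling without repeat-like and haemoglobin genes, and with node lymphomas only, where 2 were higher. Calls were 2746 genes without the Gm10800 libraries and 2749 to 3222 leaving out 1 resting library, with 3 members higher. With the S phase covariate there were 1054 genes and 0 members higher, and both Ezh2 (-0.71) and Eed (-0.0035) changed sign. Under the rescaling 31.8% of calls were higher, against 45.4%, and the median of all genes moved from -0.06 to -0.20.

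For lymphoma against LPS cells (1782 genes, 0 members), median-of-ratios scaling gave 1 higher (Dnmt3a) and 1 lower (Eed), the rescaling 1 lower (Eed) and the lymphomas with separated names 1 lower (Ezh2, -1.09). Genes called were 433 without the Gm10800 libraries, 1001 with node lymphomas only and 821 to 1392 leaving out 1 LPS library, with 0 to 1 members lower. The 1 gene for co against cr became 0 with a pseudocount of 0.1 and with name style as a term, and the 2 for node against lung became 0 with name style.

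For the S phase slope (1024 genes, 4 members), joined names gave 0 genes and 0 members, separated names 643 and 2, and leaving out the 2 farthest lymphomas 332 and 2. Median-of-ratios scaling gave 2500 genes, 41.3% positive against 88.2%, with 4 members positive. The causes were not tested. Dnmt3b, with 101.5 to 831.9 read pairs per lymphoma, had the fewest counts behind it.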
